A study of Mus musculus with 9 samples.

Results

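The mitochondrial ribosomal proteins are the nuclear-encoded subunits of the ribosome inside mitochondria, and their RNA was measured in the SV40-transformed mouse alveolar macrophage line MH-S. Members were the genes whose mouse symbol starts with Mrpl or Mrps followed by a number, without symbols that hold "-ps", which mark pseudogenes. The rule found 78 of the 56980 gene identifiers in the table, 49 of the large subunit (Mrpl) and 29 of the small subunit (Mrps). It used names and no measured value. Cells of the first group received 20 µg/ml copper oxide nanoparticles with 10 µM TTM (CuO NPs + TTM), those of the second received 20 µg/ml copper oxide nanoparticles alone (CuO NPs), and those of the third were the control. TTM is not spelled out in the labels, and the usual meaning of these letters in work on copper is the chelator tetrathiomolybdate. Each group had 3 libraries of polyadenylated RNA taken at 24 h, all from the same cell line, and no group received TTM alone.

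Mitochondrial ribosomes translate the few mRNAs of the mitochondrial genome, all of which encode subunits of the respiratory chain complexes and the ATP synthase. Their rRNAs are transcribed from mitochondrial DNA, while every protein subunit is encoded in the nucleus, made in the cytosol and imported. Many subunits descend from bacterial ribosomal proteins, and others exist only in mitochondrial ribosomes. Macrophages change their mitochondrial activity when they are activated or stressed, and the small subunit holds the decoding site while the large subunit forms the peptide bond.

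The authors deposited TPM, transcript abundance scaled for gene length to 1 fixed total per library, so values of different genes can be set beside each other but the number of reads behind them is unknown. Values above 0 were listed for 19710 to 20863 genes in each library. All 10 macrophage markers were measured, with summed levels of 1884 to 2009 TPM with CuO NPs + TTM, 1450 to 1504 TPM with CuO NPs and 2911 to 2989 TPM in control, whereas 8 epithelial markers summed to at most 0.6 TPM with 4 of them at 0 in every library. Fibroblast markers summed to 2.35 to 3.92, 3.54 to 3.93 and 13.95 to 16.0 TPM in the same order of groups. Most of this was Postn (2.8, 2.74 and 14.7 TPM on average), whereas Dcn averaged 0.453, 0.983 and 0.04 TPM. Endothelial markers summed to 11.61 to 14.34, 9.69 to 11.28 and 8.26 to 12.04 TPM. Lymphocyte markers summed to 1.72 to 3.36, 0.24 to 1.35 and 0.65 to 0.83 TPM. Of these, Cd3e was called higher with CuO NPs + TTM against CuO NPs and against control. Granulocyte markers summed to 65.2 to 72.5, 200.2 to 221 and 385 to 402 TPM. S100a8 and S100a9 made up most of the granulocyte sums, whereas Ly6g had 0.157 ± 0.068, 2.77 ± 0.356 and 0.317 ± 0.215 TPM and was called higher with CuO NPs against control. The macrophage, fibroblast and granulocyte sums of each treated group were below those in control. The part of any marker shift in the results on ribosomal protein genes was not tested. The mitochondrially encoded genes took 12.3 ± 1.05%, 15.9 ± 0.211% and 12.9 ± 0.467% of all TPM with CuO NPs + TTM, with CuO NPs and in control (SD, n = 3 in each group, here and for every level written as mean ± SD). In bulk RNA, fewer cells and less RNA per cell cannot be told apart. Whether the 3 libraries of a group are separate cultures is not given in the labels, so p-values cover only the spread between these samples, which may be technical.

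All 78 members were expressed. Their mean over the 9 libraries ran from 16.6 to 300 TPM with a median of 68.5 TPM. In the large subunit the lowest was Mrpl19 and the highest Mrpl20, and in the small subunit the lowest was Mrps25 and the highest Mrps21. The single values ran from 11.9 TPM, for Mrps25 in CuO NPs replicate 2, to 368 TPM, for Mrpl20 in control replicate 2, and every member passed the filter of at least 1 TPM in at least 3 libraries. Coding lengths in the GENCODE annotation of GRCm38, an older mouse build than the GRCm39 of the submitters' processing notes, ran from 261 to 1326 bases with a median of 582 bases, and the members lay on 17 chromosomes.

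Promoters of genes for mitochondrial proteins are known for sites of NRF1, of ETS factors such as GABP and of YY1, so these motifs were searched in RefSeq promoters of GRCm38.p6, from 250 bases before to 50 bases after the gene start, on both strands. Of the members, 69 had an entry. The NRF1 motif, GCGCA and GCGC with any 1 base between them, was in 13 of them (18.8%), against 12.5% of the 9033 tested genes with an entry and 5.19% of all 27025 genes. The ETS motif CCGGAAG was in 26 (37.7%), against 21.9% of tested genes and 9.93% of all genes, and the YY1 motif AANATGGCG was in 11 (15.9%), against 6.54% and 2.76%. A match is a description of letters and not a measured site. The 8 stretches of 100 bases below are shown because they belong to members described in the text and hold at least 1 of the 3 motifs in the 250 bases before the start, with the motif in capitals on whichever strand it reads. They run 5′ to 3′ on the strand of the gene.
Mrpl12 (chr11:120484511-120484610, plus strand, NRF1): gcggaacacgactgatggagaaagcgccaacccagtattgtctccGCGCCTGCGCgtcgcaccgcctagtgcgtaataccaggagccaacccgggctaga
Mrpl45 (chr11:97315592-97315691, plus strand, NRF1 at 2 places): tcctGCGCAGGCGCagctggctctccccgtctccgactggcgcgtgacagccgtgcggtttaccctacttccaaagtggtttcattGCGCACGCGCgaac
Mrpl57 (chr14:57826137-57826236, plus strand, NRF1): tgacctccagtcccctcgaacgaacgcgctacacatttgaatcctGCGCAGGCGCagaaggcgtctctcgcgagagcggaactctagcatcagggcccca
Mrps21 (chr3:95871551-95871650, minus strand, NRF1): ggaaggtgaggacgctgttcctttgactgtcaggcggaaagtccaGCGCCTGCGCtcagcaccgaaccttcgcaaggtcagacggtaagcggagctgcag
Mrpl51 (chr6:125192063-125192162, plus strand, ETS): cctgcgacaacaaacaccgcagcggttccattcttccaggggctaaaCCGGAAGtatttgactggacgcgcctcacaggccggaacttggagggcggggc
Mrps18a (chr17:46110904-46111003, plus strand, ETS): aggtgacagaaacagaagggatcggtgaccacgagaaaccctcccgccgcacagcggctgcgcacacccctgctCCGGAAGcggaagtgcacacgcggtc
Mrps18c (chr5:100798556-100798655, plus strand, ETS): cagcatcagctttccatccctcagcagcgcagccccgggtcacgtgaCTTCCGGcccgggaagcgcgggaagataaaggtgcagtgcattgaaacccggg
Mrps11 (chr7:78782977-78783076, plus strand, YY1): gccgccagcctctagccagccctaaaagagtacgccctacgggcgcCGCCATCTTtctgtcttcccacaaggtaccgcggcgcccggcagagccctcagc

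Motifs tied to metal, heat, oxidant and amino acid stress were counted in the same windows. The metal response element core TGCGCNC was in 26 of the 69 members (37.7%), against 30.3% of tested genes. The heat shock element core GAANNTTC was in 5 members (7.25%), against 7.03%, and the antioxidant response element core TGACNNNGC in 14 (20.3%), against 16.9%. No member window held the ATF4 motif TGATGNAA, which was in 2.82% of tested genes, and 5 (7.25%) held the E-box CACGTG, which was in 12% of tested genes. Of the printed members, Mrps21, Mrps18c, Mrps11 and Mrpl45 were called higher with CuO NPs against control, under all 4 other scalings as well. Mrpl51, Mrpl57 and Mrpl12 were called lower, and these calls were kept under 2, 0 and 1 of the 4 other scalings. Mrps18a was not called in this comparison on the TPM scale, but was called higher under median-of-ratios scaling, median centring and quantile normalization.

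The summed level of the family was close in the 3 groups. It was 5878 ± 39.8 TPM with CuO NPs + TTM, 6083 ± 55.3 TPM with CuO NPs and 6124 ± 152 TPM in control, which was 0.588 ± 0.004%, 0.608 ± 0.006% and 0.612 ± 0.015% of all TPM. The 3 sums with CuO NPs + TTM (5843, 5921 and 5869 TPM) were below all 3 with CuO NPs (6068, 6037 and 6144 TPM), and the sums with CuO NPs overlapped those in control (6042, 6298 and 6030 TPM). The large subunit summed to 3903 ± 25.9, 4048 ± 46.2 and 4137 ± 124 TPM in the same order of groups, and the small subunit to 1975 ± 14.0, 2035 ± 14.8 and 1986 ± 34.9 TPM.

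On the log2 scale, the balance between the subunits did not move beyond its spread. The mean log2(TPM + 1) of the large subunit minus that of the small subunit was 0.208 ± 0.015 with CuO NPs + TTM, 0.199 ± 0.024 with CuO NPs and 0.207 ± 0.025 in control. These groups overlapped in every pair. The large subunit alone averaged 6.02 ± 0.015, 6.04 ± 0.004 and 6.07 ± 0.024 on that log2 scale, and the small subunit 5.82 ± 0.012, 5.84 ± 0.024 and 5.86 ± 0.020. Summed TPM weighs genes of high level more. By these sums, large relative to small was lower in every treated library than in every control library, which was not tested.

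**Figure D1:**
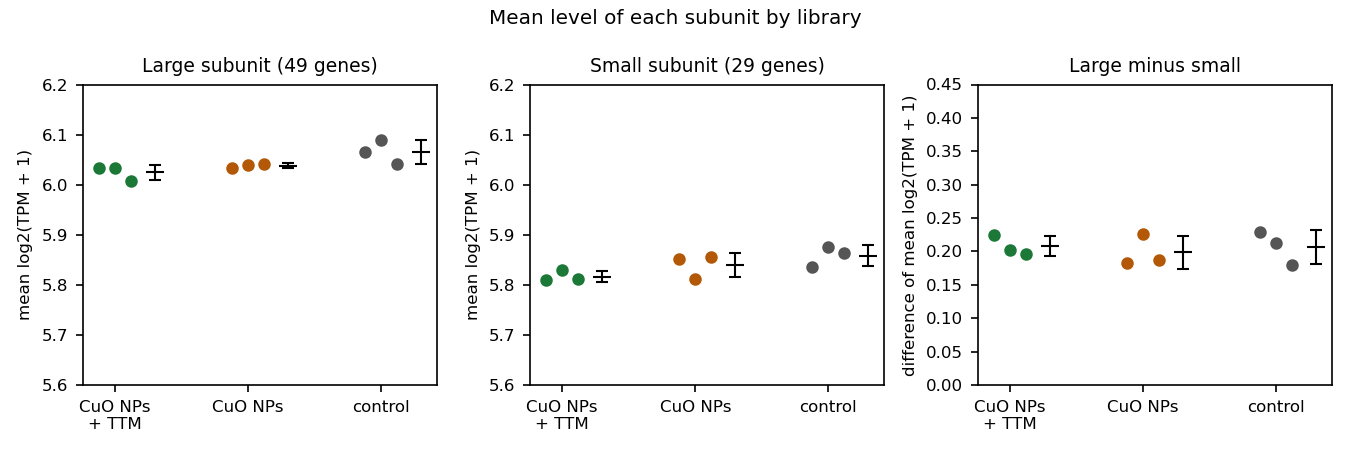
Mean log2(TPM + 1) of the 49 large-subunit genes (left), of the 29 small-subunit genes (middle) and the difference of the 2 means (right) in each library, with CuO NPs + TTM, CuO NPs and control from left to right. Each point is a library and the black bar is the mean ± SD of 3; the axes of the first 2 panels do not start at 0, and the difference stays between 0.179 and 0.229 in all 9 libraries.

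For CuO NPs against control, the question was which members differed after the nanoparticles alone. Expression was tested with limma on log2(TPM + 1) over 12904 genes with Benjamini-Hochberg adjustment, and calls were made below an adjusted p of 0.05. Of the 78 members, 13 rose and 17 fell, which is 38.5% of members beside 41.9% of all genes tested. The direction of this balance depended on scaling, since median-of-ratios scaling gave 23 members higher and 4 lower, median centring of the libraries 29 and 4, and quantile normalization 22 and 6. The median gene of all genes tested had a log2 fold change of -0.12 on the TPM scale, and the median member had -0.04, or 0.08 relative to all genes. By direction the members called were 16.7% higher and 21.8% lower, against 11.8% and 30.1% of all genes.

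Changes of members were small. The SD of their log2 fold changes was 0.24, against 0.51 over all genes tested, and 1 member was called with at least 1.5-fold change beside 13.9% of all genes. This narrow spread was not particular to the members. The SD was 0.25 for the cytosolic ribosomal proteins and 0.19 for the genes for assembly and rRNA modification, both described below. The groups did not overlap for 40 members, 16 higher and 24 lower, or 51.3% of them, against 53.0% of all genes. In the large subunit 7 genes rose and 11 fell with a median log2 fold change of -0.04, and in the small subunit 6 rose and 6 fell with a median of 0.00. Without control replicate 2, 7 large-subunit genes fell.

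**Figure D2:**
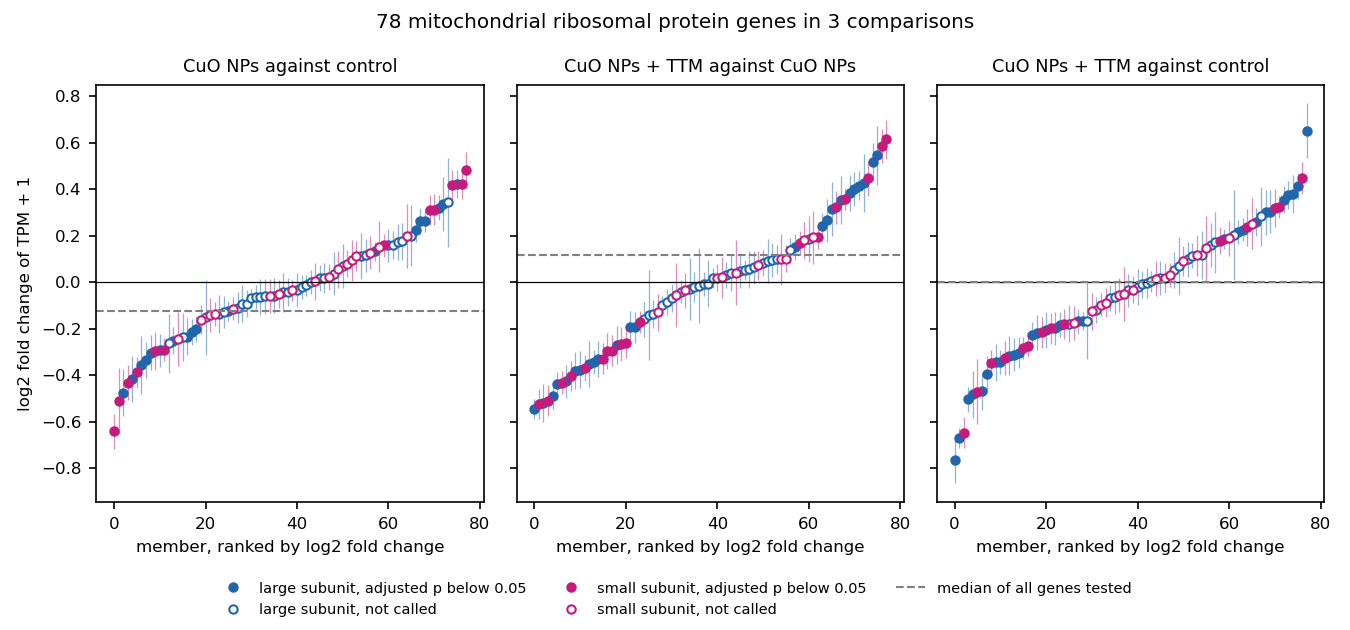
Log2 fold change of TPM + 1 with its standard error for the 78 members, ranked within each of the 3 comparisons, with large-subunit genes in blue and small-subunit genes in pink. Filled points passed an adjusted p below 0.05, open points did not, and the dashed line is the median of all 12904 genes tested, at -0.12, 0.12 and 0.00 from left to right; both subunits are spread over the whole range in each panel.

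The largest fall in the small subunit with CuO NPs was that of Mrps35 (ENSMUSG00000040112), which encodes a subunit with no bacterial counterpart. It had 27.6, 31.9 and 31.8 TPM with CuO NPs, against 48.2, 45.3 and 50.3 TPM in control. All 3 treated libraries lay well below the lowest control library, and the log2 fold change was -0.64 (SE 0.08; limma, adjusted p = 0.000128). Mrps23 (ENSMUSG00000023723), another mitochondria-specific small subunit, had 91.6, 83.1 and 94.8 TPM with CuO NPs, against 129, 108 and 128 TPM in control. Its groups did not overlap, and the log2 fold change was -0.43 (SE 0.08; limma, adjusted p = 0.00154). Mrps2 (ENSMUSG00000035772), the counterpart of bacterial S2, had 36.3, 35.5 and 32.7 TPM, against 43.5, 47.8 and 46.3 TPM in control, a log2 fold change of -0.39. Mrpl35 (ENSMUSG00000052962), the counterpart of bacterial L35, had 18.4, 20.8 and 19.4 TPM, against 27.5, 26.9 and 28.0 TPM in control, a log2 fold change of -0.48. These 4 were the members that fell and kept the call under each of the 4 other scalings run.

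The other named falls rested on the scaling or on single libraries. Mrpl51, a large subunit with no bacterial counterpart, had 103, 89.2 and 92.0 TPM with CuO NPs, against 124, 139 and 117 TPM in control, and its log2 fold change of -0.41 was not called with median-of-ratios scaling or median centring. Mrps25 had a log2 fold change of -0.51, lost with 3 of the 4 scalings, without control replicate 2 (limma adjusted p = 0.050) and without control replicate 3 (0.0555). Mrpl57 had -0.36, lost with all 4 scalings and without control replicate 2 (limma adjusted p = 0.126), control replicate 3 (0.113), CuO NPs replicate 2 (0.111) or CuO NPs + TTM replicate 2 (0.0588). Mrps34, which stabilises the small subunit, had -0.30, lost with 3 of the 4 scalings and without control replicate 2 (limma adjusted p = 0.0604), control replicate 3 (0.0606) or CuO NPs replicate 3 (0.0569).

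All 13 members that rose with CuO NPs kept the call under each of the 4 other scalings. Mrps12 (ENSMUSG00000045948), which sits at the decoding centre, had 60.9, 58.4 and 57.2 TPM with CuO NPs, against 44.3, 43.3 and 38.1 TPM in control. Every treated library was above every control library, and the log2 fold change was 0.48 (SE 0.08; limma, adjusted p = 0.0009). Mrps6 (ENSMUSG00000039680), the counterpart of bacterial S6, had 36.3, 41.3 and 40.7 TPM, against 28.9, 28.6 and 29.9 TPM in control, with a log2 fold change of 0.42. Mrps21 (ENSMUSG00000054312), the counterpart of bacterial S21, had 292, 321 and 302 TPM, against 212, 251 and 221 TPM in control, with 0.42. In none of these did the groups overlap.

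In the large subunit the rises were led by Mrpl38 (ENSMUSG00000020775), a mitochondria-specific subunit. It had 141, 136 and 127 TPM with CuO NPs, against 106, 95.6 and 98.7 TPM in control, with a difference of 0.42 on the log2 scale (SE 0.06; limma, adjusted p = 0.000363). Mrpl49, also mitochondria-specific, rose by 0.32 on the log2 scale, and Mrps18c and Mrps11 of the small subunit each rose by 0.31. Mrpl14, the counterpart of bacterial L14, had 0.34 (SE 0.12, limma adjusted p = 0.0428), and this call was lost without control replicate 1 (0.0932), control replicate 3 (0.141), CuO NPs replicate 1 (0.103), 2 (0.0842) or 3 (0.0798), or CuO NPs + TTM replicate 2 (0.057). Mrpl47 had the same size of log2 fold change, 0.34, with a wider error (SE 0.19, limma adjusted p = 0.181), and was not called; it is named here after its value was seen.

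**Figure D3:**
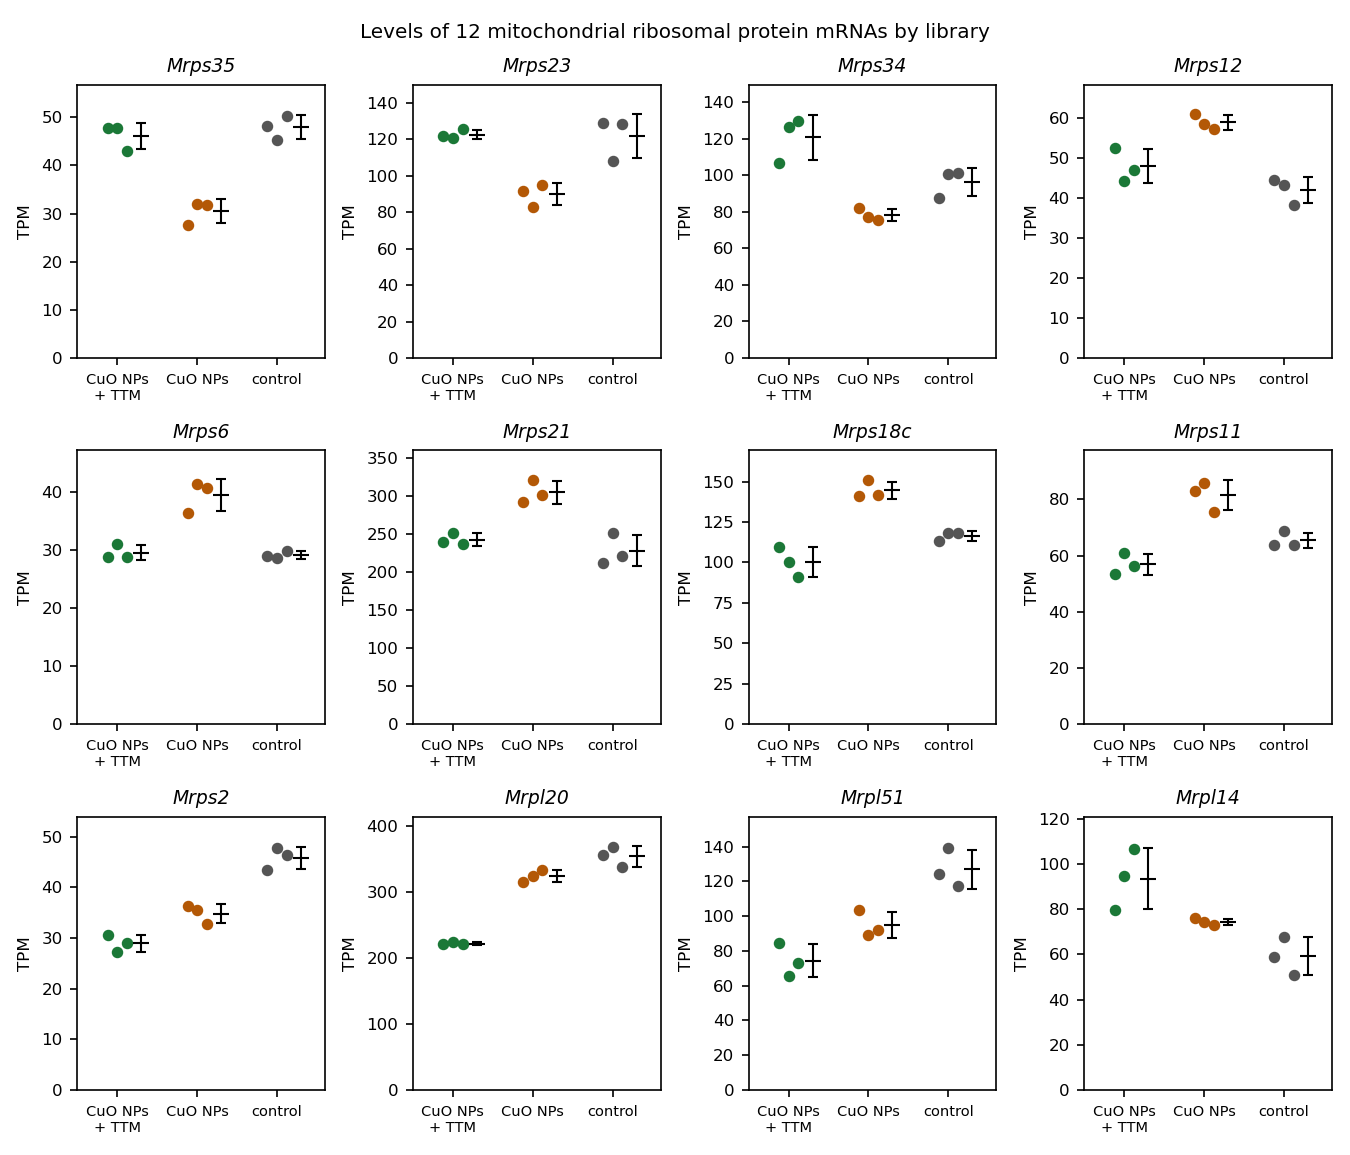
TPM of 12 mitochondrial ribosomal protein mRNAs in each library, with CuO NPs + TTM, CuO NPs and control from left to right in every panel. Points are libraries and the black bar beside them is the mean ± SD of 3; Mrps35 and Mrps23 are lowest with CuO NPs, Mrps12, Mrps6, Mrps21, Mrps18c and Mrps11 are highest with CuO NPs, and Mrpl20, Mrpl51 and Mrps2 are lowest with CuO NPs + TTM.

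The comparison of CuO NPs + TTM with CuO NPs asked which members differed when TTM was given beside the nanoparticles. Of the 78 members, 18 rose and 24 fell, which is 53.8% of members beside 53.1% of all genes tested. By direction this was 23.1% higher and 30.8% lower, against 34.6% and 18.5% of all genes. More members fell than rose under each of the other scalings too, with 10 higher and 31 lower under median-of-ratios scaling, 7 and 35 under median centring and 13 and 28 under quantile normalization. The median member had a log2 fold change of 0.01, against 0.12 for all genes, or -0.11 relative to them. The groups did not overlap for 49 members (62.8%), against 59.4% of all genes, and 2 members, Mrps34 and Mrps35, were called with at least 1.5-fold change beside 21.5% of all genes. In the large subunit 11 genes rose and 13 fell with a median of -0.01, and in the small subunit 7 rose and 11 fell with a median of 0.02. Without CuO NPs replicate 3 or CuO NPs + TTM replicate 3, 7 large-subunit genes rose.

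Mrps34 (ENSMUSG00000038880) had 107, 126 and 130 TPM with CuO NPs + TTM, against 81.9, 77.4 and 75.7 TPM with CuO NPs. The groups were far apart, with a difference of 0.61 on the log2 scale (SE 0.08; limma, adjusted p = 0.000237). Mrps35 had 47.7, 47.8 and 42.9 TPM with CuO NPs + TTM, against the 27.6 to 31.9 TPM with CuO NPs given above, with a difference of 0.59 on the log2 scale (SE 0.08; limma, adjusted p = 0.000171). Mrps23 had 122, 120.5 and 125 TPM, against 83.1 to 94.8 TPM with CuO NPs, with a log2 fold change of 0.45. For Mrps35 and Mrps23 the libraries with CuO NPs + TTM overlapped those in control, with log2 fold changes of -0.06 and 0.01 that were not called. The comparisons share libraries, so these values are not independent of each other.

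In the large subunit Mrpl19, the counterpart of bacterial L19, had 20.6, 20.4 and 19.0 TPM with CuO NPs + TTM, against 12.5, 14.4 and 13.2 TPM with CuO NPs, with a difference of 0.55 on the log2 scale (SE 0.13; limma, adjusted p = 0.00525). Mrpl2, the counterpart of the bacterial subunit L2 beside the peptidyl transferase centre, had 76.9, 76.3 and 80.9 TPM, against 49.1, 52.2 and 62.1 TPM with CuO NPs, with a difference of 0.52 on the log2 scale (SE 0.08; limma, adjusted p = 0.000583). For both genes the groups did not overlap, and both calls were kept under each alternative run. Mrpl57 had 0.43, which was called under 1 of the 4 other scalings and was lost without CuO NPs + TTM replicate 3 (log2 fold change 0.37, limma adjusted p = 0.0586).

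Mrpl20 (ENSMUSG00000029066), the counterpart of bacterial L20 and the member of highest level, fell with TTM. It had 221, 224 and 221 TPM with CuO NPs + TTM, against 315, 324 and 333 TPM with CuO NPs. The 3 values with TTM were nearly equal and far below all others, and the log2 fold change was -0.55 (SE 0.04; limma, adjusted p = 1.02e-05). For CuO NPs against control the call of Mrpl20 (log2 fold change -0.12) turned to 0.0093, 0.057 and 0.024, not called, under median-of-ratios scaling, median centring and quantile normalization. That call was also lost without control replicate 1 (limma adjusted p = 0.103), control replicate 2 (0.142), CuO NPs replicate 1 (0.129), CuO NPs replicate 2 (0.0765) or CuO NPs + TTM replicate 2 (0.0546). Mrpl54, a mitochondria-specific subunit, had 59.9, 58.9 and 60.4 TPM, against 98.5, 81.5 and 79.6 TPM with CuO NPs, with -0.52. Mrpl49 had 61.7, 59.9 and 54.5 TPM, against 82.7, 84.1 and 81.3 TPM, with -0.49.

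In the small subunit the largest falls with TTM were those of Mrps18c, Mrps11 and Mrps18b, all counterparts of bacterial subunits. Mrps18c had 110, 100.4 and 91.3 TPM with CuO NPs + TTM, against 141, 151 and 142 TPM with CuO NPs, with a difference of -0.53 on the log2 scale (SE 0.06; limma, adjusted p = 0.000139). Mrps11 had 53.4, 60.9 and 56.4 TPM, against 83.0, 86.0 and 75.5 TPM, with -0.51, and Mrps18b had 85.0, 81.6 and 79.8 TPM, against 106, 114 and 113 TPM, with -0.43. Each of these 3 groups of libraries was clear of its comparison group. All 24 falls kept the call under the 4 other scalings, and 19 of them also did so with each of the 9 libraries left out in turn. Of the 18 rises, 7 kept the call under all 4 scalings, namely Mrpl2, Mrpl10, Mrpl19, Mrps10, Mrps23, Mrps34 and Mrps35.

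The comparison of CuO NPs + TTM with control asked what differed from untreated cells when both agents were present. Of the 78 members, 16 rose and 27 fell, 55.1% of members beside 55.5% of all genes tested. By direction this was 20.5% higher and 34.6% lower, against 27.3% and 28.2% of all genes. The split was 16 higher and 26 lower with median-of-ratios scaling and 14 and 27 with median centring, while quantile normalization gave 19 and 21 and turned the median member positive (0.05, against -0.03 on the TPM scale). The median of all genes was 0.00. The groups did not overlap for 47 members (60.3%), against 63.1% of all genes, and 4 members were called with at least 1.5-fold change beside 23.8% of all genes. In the large subunit 11 genes rose and 18 fell, and in the small subunit 5 rose and 9 fell. In the small subunit 3 rose without control replicate 3 or CuO NPs + TTM replicate 3, and 5 fell without control replicate 2.

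These 4 were Mrpl14, which rose, and Mrpl51, Mrpl20 and Mrps2, which fell. Mrpl14 (ENSMUSG00000023939) had 79.5, 94.7 and 107 TPM with CuO NPs + TTM, against 58.8, 67.9 and 50.97 TPM in control, with a difference of 0.65 on the log2 scale (SE 0.12; limma, adjusted p = 0.00107). Mrpl51 (ENSMUSG00000030335) had 84.5, 65.6 and 73.0 TPM, against 124, 139 and 117 TPM in control, with -0.77 (SE 0.10, limma adjusted p = 0.000146). In all of them the groups were apart. Mrpl20 had 355, 368 and 337 TPM in control, above every treated library, and a log2 fold change of -0.67. Mrps2 had 30.5, 27.3 and 28.96 TPM with CuO NPs + TTM, against 43.5 to 47.8 TPM in control, with -0.65. All 4 calls were kept under each alternative run.

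Further rises with CuO NPs + TTM against control were those of Mrps9, at 0.45 on the log2 scale, Mrpl28, at 0.41, Mrpl2, at 0.38, Mrps10 and Mrps34, at 0.32 each. Mrps9 and Mrps10 are the counterparts of bacterial S9 and S10. Further falls were those of Mrpl21, at -0.50, and Mrps7, at -0.35, counterparts of bacterial L21 and S7, of which S7 binds the rRNA early in assembly in bacteria. Mrps25 had -0.47, and this call was lost without control replicate 2 (limma adjusted p = 0.0523), control replicate 3 (0.0603) or CuO NPs + TTM replicate 1 (0.0569).

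The 3 genes named after bacterial S18 take different places in the ribosome. Mrps18b and Mrps18c lie in the small subunit, while the product of Mrps18a is found in the large subunit in structures of mammalian mitochondrial ribosomes. Mrps18a had 109, 105 and 115 TPM with CuO NPs + TTM, 104, 98.1 and 105 TPM with CuO NPs, and 92.5, 104 and 94.7 TPM in control. It had log2 fold changes of 0.08 for CuO NPs against control and 0.10 for CuO NPs + TTM against CuO NPs, neither called. In the first comparison it was called higher under median centring (0.26, limma adjusted p = 0.0244), median-of-ratios scaling (0.21, 0.0437) and quantile normalization (0.19, 0.0362). With CuO NPs + TTM against control it rose by 0.18 (limma adjusted p = 0.0238), a call lost under median centring, median-of-ratios scaling and without control replicate 1 (limma adjusted p = 0.0867), control replicate 3 (0.072) or CuO NPs + TTM replicate 3 (0.0801). Mrps18b and Mrps18c rose in the first comparison and fell in the second. The call of Mrps18b in the first comparison (log2 fold change 0.16) was lost without control replicate 1 (limma adjusted p = 0.109), CuO NPs replicate 3 (0.0915) or CuO NPs replicate 2 (0.0774). No test was made of the difference between the 3 genes.

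Members with a second role or an unusual place had small differences. Mrpl12, a stalk protein that also binds the mitochondrial RNA polymerase, had 136, 145 and 152 TPM with CuO NPs + TTM, 146, 132 and 145 TPM with CuO NPs, and 166, 164 and 161 TPM in control. Both treated groups lay below control, with a log2 fold change of -0.21 for CuO NPs (SE 0.05, limma adjusted p = 0.0116), which kept its call under 1 of the 4 other scalings, and of -0.18 for CuO NPs + TTM, which also kept its call under 1 and lost it without control replicate 1 (limma adjusted p = 0.055) or CuO NPs + TTM replicate 1 (0.0612). Mrpl45, which ties the large subunit to the inner membrane, had 78.3, 77.96 and 79.3 TPM, 77.7, 74.2 and 75.1 TPM, and 68.9, 67.5 and 70.5 TPM in the same order of groups. It rose by 0.13 with CuO NPs and by 0.18 with CuO NPs + TTM against control, and the first call was lost without control replicate 1 (limma adjusted p = 0.0755), control replicate 2 (0.101), CuO NPs replicate 1 (0.0979) or CuO NPs replicate 3 (0.0652). Mrps30, whose product lies in the large subunit in structures, was not called in any of the 3 comparisons on the TPM scale, with log2 fold changes between -0.13 and 0.00. With CuO NPs + TTM against CuO NPs it was called lower under median centring (-0.32, limma adjusted p = 0.0122), median-of-ratios scaling (-0.25, 0.0331) and quantile normalization (-0.28, 0.0239). Mrps36, whose product is now known as a part of the oxoglutarate dehydrogenase complex, had 69.4, 76.6 and 73.5 TPM with CuO NPs + TTM, 59.5, 65.6 and 68.4 TPM with CuO NPs, and 63.5, 67.1 and 55.8 TPM in control. It rose by 0.24 with CuO NPs + TTM against control (limma adjusted p = 0.0284), a call lost without control replicate 3 (0.1004), CuO NPs + TTM replicate 2 (0.0921) or CuO NPs + TTM replicate 3 (0.0658).

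Members with and without a bacterial counterpart, assigned by hand from textbook knowledge, were also counted apart. With CuO NPs against control, 10 of 48 members with a counterpart rose and 8 fell with a median of 0.02, and 3 of 29 without one rose and 9 fell with a median of -0.09. Those without one were thus 10.3% higher and 31.0% lower, near the 11.8% and 30.1% of all genes tested, and those with one were 20.8% higher and 16.7% lower. With median-of-ratios scaling these counts were 17 and 2 with a counterpart, and 6 and 2 without one. With CuO NPs + TTM against control 11 rose and 14 fell with a counterpart, and 4 rose and 13 fell without one (13.8% and 44.8%, against 27.3% and 28.2% of all genes), and quantile normalization gave 13 and 10, and 5 and 11.

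**Figure D4:**
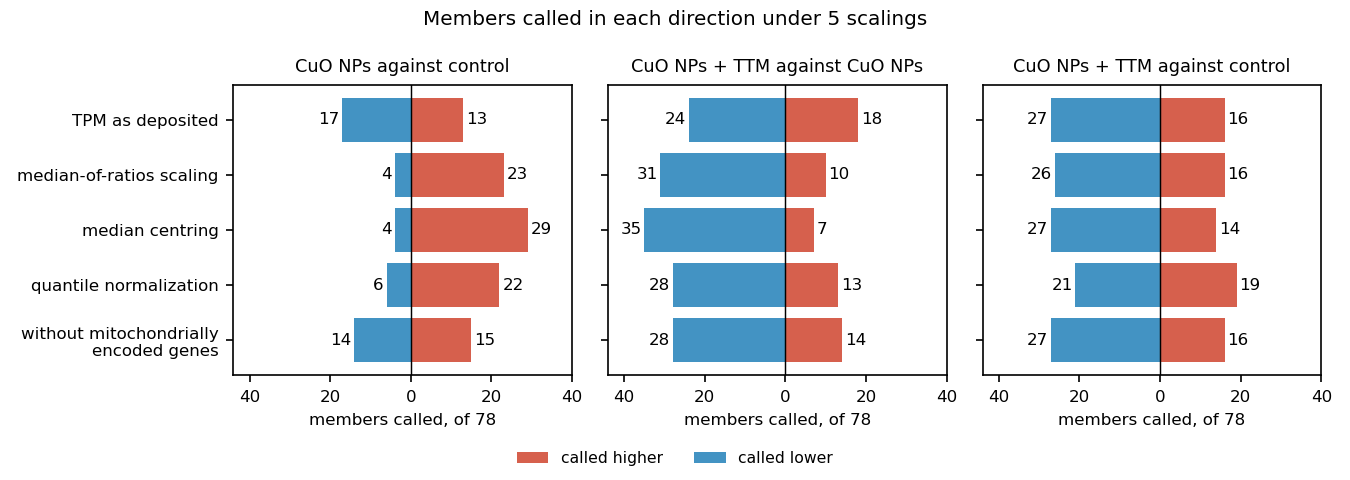
Number of the 78 members called higher (red, right of 0) and lower (blue, left of 0) in each comparison under the deposited TPM and 4 other scalings. For CuO NPs against control the split changes from 13 higher and 17 lower to 29 and 4, for CuO NPs + TTM against CuO NPs it changes from 18 and 24 to 7 and 35, and for CuO NPs + TTM against control it moves least.

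Copies and neighbours limit what some of these values mean. Mrpl23 had 17.8 ± 0.826, 18.2 ± 2.46 and 15.8 ± 3.03 TPM with CuO NPs + TTM, with CuO NPs and in control, while its pseudogene Mrpl23-ps1 had 87.3 ± 5.50, 53.2 ± 8.12 and 56.3 ± 6.62 TPM, so reads of the 2 genes may have been split. Their sum was 105 ± 5.06, 71.5 ± 5.696 and 72.2 ± 3.67 TPM. Mrpl48 and Mrpl48-ps summed to 42.0 ± 1.23, 32.1 ± 2.10 and 43.6 ± 6.43 TPM. Of the 78 members, 36 are overlapped by a gene on the opposite strand in the GENCODE annotation. Among them are Mrpl10, Mrpl12, Mrpl14, Mrpl19, Mrpl21, Mrpl45, Mrpl46, Mrpl47, Mrpl48, Mrpl49, Mrps7, Mrps11, Mrps18a, Mrps18b, Mrps25, Mrps30 and Mrps34. A gene on the same strand overlaps 13 members, among them Mrpl2, Mrpl46, Mrpl51, Mrps6, Mrps18c and Mrps34. The sources used here do not say if counting took strand into account, so values of these genes are uncertain.

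Members often share their start region with another gene. In the same annotation 33 of the 78 (42.3%) start within 1000 bases of the start of a protein-coding gene on the other strand, against 18.2% of the 10905 protein-coding genes tested. Mrps11 and Mrpl46 are each other's partner, with starts 412 bases apart and overlapping. Mrps11 rose by 0.31 with CuO NPs while Mrpl46, a mitochondria-specific large subunit, had a log2 fold change of -0.06 that was not called, and with CuO NPs + TTM against CuO NPs both fell, by 0.51 and 0.33 on the log2 scale. Mrps12 starts 172 bases from Sars2, which encodes the mitochondrial seryl-tRNA synthetase. Sars2 had a log2 fold change of 0.00 with CuO NPs against control, where Mrps12 rose by 0.48. Mrps34 starts 29 bases from Eme2, a DNA repair gene. With CuO NPs against control both fell, by -0.30 and -0.65. With CuO NPs + TTM against CuO NPs Mrps34 had 0.61 and Eme2 -0.77. Other pairs were called in the same direction, such as Mrpl13 and Mtbp with CuO NPs against control (0.23 and 0.59). Mrpl51 and Ncapd2 both fell there (-0.41 and -0.70) but had -0.35 and 0.56 with CuO NPs + TTM against CuO NPs. In that comparison Mrpl2 and Klc4 both rose (0.52 and 0.81). Whether partners change together was not tested.

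Both rRNAs of the mitochondrial ribosome rose with CuO NPs, with larger log2 fold changes than the mRNA of any of the 78 members. The small-subunit rRNA mt-Rnr1 had 572, 527 and 490.3 TPM with CuO NPs + TTM, 970.1, 959 and 998 TPM with CuO NPs, and 453, 496 and 485 TPM in control. The large-subunit rRNA mt-Rnr2 had 393, 291 and 265 TPM, 581, 612 and 619 TPM, and 265, 303 and 262 TPM in the same order. In both, every library with CuO NPs was above all others. The log2 fold changes were 1.03 (SE 0.06, limma adjusted p = 1.46e-06) and 1.13 (SE 0.12, limma adjusted p = 9.25e-05) for CuO NPs against control, and -0.88 and -0.95 for CuO NPs + TTM against CuO NPs. For CuO NPs + TTM against control they were 0.15 and 0.18 and not called, except with quantile normalization, which called both, and without CuO NPs + TTM replicate 3, which called mt-Rnr1 (limma adjusted p = 0.0133). The libraries were made from polyadenylated RNA, so they show only the rRNA that was captured in that way.

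Subunits whose symbol does not start with Mrp behaved in the same small range. Of 5 such genes 1 fell and 0 rose with CuO NPs against control in limma, also at an unadjusted p below 0.05. The 20% that fell stood beside 30.1% of all genes tested. The gene that fell was Ptcd3, a small subunit that is a pentatricopeptide repeat protein. It had 42.3, 40.1 and 39.95 TPM with CuO NPs + TTM, 52.0, 56.1 and 53.5 TPM with CuO NPs, and 69.1, 62.3 and 65.0 TPM in control. No 2 of the groups overlapped, and the log2 fold changes were -0.28 for CuO NPs against control, not called under median centring, -0.67 for CuO NPs + TTM against control and -0.39 for CuO NPs + TTM against CuO NPs.

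Among the 25 genes for assembly and rRNA modification, 1 rose (4%) and 4 fell (16%) with CuO NPs against control. All genes tested were 11.8% higher and 30.1% lower. With CuO NPs + TTM against CuO NPs 7 rose (28%) and 3 fell (12%), beside 34.6% and 18.5% of all genes. Median centring gave 3 and 9 there. The largest falls with CuO NPs were those of Ddx28, an RNA helicase, at -0.59, and Rbfa, which matures the small subunit, at -0.49. Rbfa rose by 0.41 with CuO NPs + TTM against CuO NPs, not called under median centring (limma adjusted p = 0.0749), whereas Ddx28 had -0.07 and was called lower under median centring (-0.26, limma adjusted p = 0.0227) and quantile normalization (-0.28, 0.0166). For CuO NPs + TTM against control 5 of the 25 rose (20%) and 9 fell (36%), beside 27.3% and 28.2% of all genes. Each of the 4 other scalings gave the same 2 counts.

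Of 17 translation factors 6 fell and 0 rose with CuO NPs against control in limma (8 and 0 at an unadjusted p below 0.05). The 35.3% that fell stood beside 30.1% of all genes tested, and median-of-ratios scaling gave 1 rise and 3 falls and median centring 2 of each. Guf1, a back-translocating elongation factor, had 37.6, 38.3 and 37.2 TPM with CuO NPs + TTM, 17.8, 17.6 and 17.9 TPM with CuO NPs, and 26.1, 27.5 and 26.0 TPM in control. The 3 groups were tight and apart, with log2 fold changes of -0.55 for CuO NPs against control and 0.49 for CuO NPs + TTM against control, and 1.04 between the groups with and without TTM. Gatb, a subunit of the glutaminyl-tRNA amidotransferase, had -0.61 with CuO NPs, a call lost under 3 of the other scalings and without control replicate 1 (limma adjusted p = 0.0782), control replicate 2 (0.113), CuO NPs replicate 2 (0.110) or CuO NPs replicate 3 (0.106), and 1.09 with CuO NPs + TTM against CuO NPs.

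Of 17 mitochondrial aminoacyl-tRNA synthetases, 2 rose and 1 fell with CuO NPs against control (5 and 1 under median centring). These were 11.8% and 5.88%, beside 11.8% and 30.1% of all genes tested. With CuO NPs + TTM against control 9 rose (52.9%) and 4 fell (23.5%), beside 27.3% and 28.2% of all genes. Iars2, the isoleucyl enzyme, had 26.4, 26.2 and 25.3 TPM with CuO NPs + TTM, 16.8, 16.1 and 15.6 TPM with CuO NPs, and 23.0, 21.9 and 22.3 TPM in control, so its lowest levels were with CuO NPs. Aars2 rose with CuO NPs against control, with a log2 fold change of 0.37. Its call was lost without control replicate 1 (limma adjusted p = 0.0854), control replicate 3 (0.134), CuO NPs replicate 1 (0.138), CuO NPs replicate 2 (0.0569) or CuO NPs + TTM replicate 2 (0.0559). Of 18 genes for transcription of mitochondrial DNA and RNA processing, 0 rose and 8 fell with CuO NPs against control in limma. At an unadjusted p below 0.05 these counts were 1 and 8. The 44.4% that fell stood beside 30.1% of all genes tested, and median-of-ratios scaling gave 2 higher and 5 lower. For CuO NPs + TTM against control 2 rose (11.1%) and 10 fell (55.6%), beside 27.3% and 28.2% of all genes. The same 2 counts were found under all 4 other scalings. Elac2, which trims the ends of mitochondrial tRNAs, had -0.57 and -0.72 in these comparisons, and Ssbp1, which binds single-stranded mitochondrial DNA, -0.49 in both.

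Of 14 genes for inner membrane insertion and proteolysis, 2 rose (14.3%) and 6 fell (42.9%) with CuO NPs against control. All genes tested were 11.8% higher and 30.1% lower, and with median-of-ratios scaling 4 of the 14 rose and 4 fell. Hspe1, the mitochondrial co-chaperonin, had 449, 467 and 476 TPM with CuO NPs, against 281, 276 and 281 TPM in control, and Spg7, a subunit of the protease that matures Mrpl32, had 13.8, 15.7 and 16.7 TPM, against 22.6, 21.8 and 19.5 TPM. Both differences were larger than the spread between libraries, with log2 fold changes of 0.73 and -0.44. Of 9 transcription factors known to act on nuclear genes for mitochondrial proteins, 1 rose and 5 fell with CuO NPs (11.1% and 55.6%, against 11.8% and 30.1% of all genes tested). Median-of-ratios scaling and quantile normalization gave 2 higher and 3 lower, and median centring 2 and 2. Myc had 7.05, 7.46 and 7.97 TPM with CuO NPs, against 15.3, 14.4 and 14.6 TPM in control, a log2 fold change of -0.89.

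The 13 mitochondrially encoded mRNAs are what this ribosome translates. With CuO NPs against control 4 rose and 0 fell in limma (6 and 1 at an unadjusted p below 0.05). The 30.8% that rose stood beside 11.8% of all genes tested, of which 30.1% fell. Median-of-ratios scaling gave 7 rises, median centring 8, and quantile normalization 4 rises and 1 fall. With CuO NPs + TTM against CuO NPs 3 rose (23.1%) and 5 fell (38.5%), beside 34.6% and 18.5% of all genes. This balance was 0 and 5 with median-of-ratios scaling. mt-Nd4l, a subunit of complex I, rose by 0.42 with CuO NPs, a call lost without control replicate 3 (limma adjusted p = 0.0936), CuO NPs replicate 1 (0.101) or CuO NPs replicate 3 (0.0785). In that comparison the log2 fold changes of the 13 mRNAs ran from -0.11 to 0.99, and those larger than that of mt-Nd4l were not called. mt-Atp8, a subunit of the ATP synthase, rose by 0.40. With quantile normalization mt-Atp8 had 0.00, and with no filter it was not called.

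The ribosome of the cytosol is the closest comparison. Its genes were taken by symbol, mainly Rpl or Rps followed by a number without "-ps". This rule can also take in paralogues and genes that are only named alike. Of these 93 genes 86 were tested. With CuO NPs against control 11 rose (12.8%) and 12 fell (14.0%) with a median of 0.00. Of the 78 mitochondrial members 13 rose (16.7%) and 17 fell (21.8%), and all genes tested were 11.8% higher and 30.1% lower. With median-of-ratios scaling 26 cytosolic genes rose and 2 fell. With CuO NPs + TTM against control 43 cytosolic genes rose (50%) and 10 fell (11.6%) with a median of 0.19. In that comparison 16 mitochondrial genes rose (20.5%) and 27 fell (34.6%) with a median of -0.03. All genes tested were 27.3% higher and 28.2% lower. With CuO NPs + TTM against CuO NPs 41 cytosolic genes rose (47.7%) and 5 fell (5.81%), beside 34.6% and 18.5% of all genes. With median-of-ratios scaling 8 rose and 10 fell, so this excess depended on the scaling. Summed cytosolic ribosomal protein levels were 99224 ± 5180.3, 87922 ± 2212 and 87181 ± 2405 TPM with CuO NPs + TTM, with CuO NPs and in control. The difference between the 2 ribosomes was not tested.

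**Figure D5:**
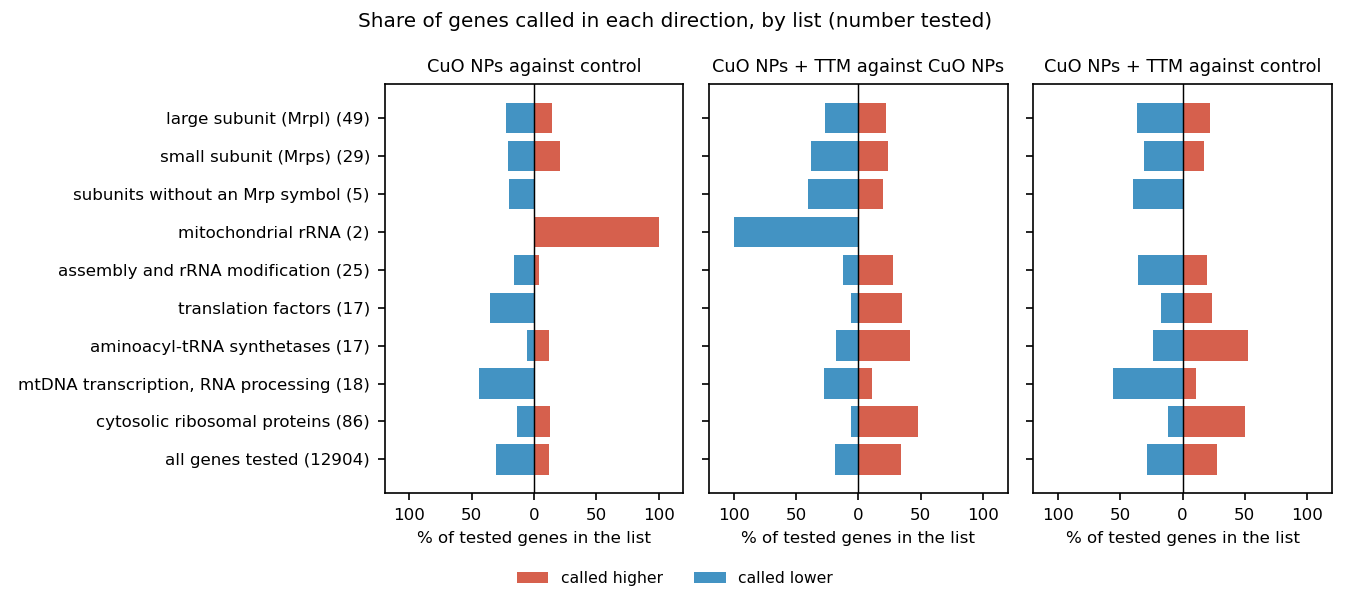
Share of the tested genes of each list called higher (red, right of 0) and lower (blue, left of 0) at an adjusted p below 0.05 in the 3 comparisons, with the number of genes tested in brackets. For CuO NPs against control, 38.5% of the 78 members are called in either direction, against 41.9% of all genes. For CuO NPs + TTM against CuO NPs the members are 23.1% higher and 30.8% lower, against 34.6% and 18.5% of all genes. In that comparison 62.1% of the small subunit is called, against 53.1% of all genes. The 2 mitochondrial rRNAs are called higher with CuO NPs against control and lower with CuO NPs + TTM against CuO NPs.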

How the data were processed

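Polyadenylated RNA of 9 libraries was sequenced, 3 per group. The authors deposited TPM with 2 decimals for each gene, and DESeq2, fastp, HISAT2 and RSEM are named without versions, with the build GRCm39, per the submitters' processing notes. TPM keeps no record of depth, which is unknown, so no counting interval is given. Genes with at least 1 TPM in at least 3 libraries (12904) were tested on log2(TPM + 1) in 1 fit of all libraries with 1 mean for each group (R 4.3.3, limma 3.58.1, eBayes with trend, two-sided, Benjamini-Hochberg over all genes, called at an adjusted p below 0.05). The procedure was run on simulated data, where recovery was required only for changes larger than that of any member. Fold changes on this scale understate those of genes with few TPM. Symbols were matched by identifier for 52073 of the 56980 rows. Alternatives changed the pseudocount, filter, scaling, trend, groups, replicate block, subunit assignment and each library in turn.

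The members and gene lists were chosen with earlier results of these data known. Named members were, per comparison and subunit, the 3 called highest and the 3 called lowest, the highest and lowest in level, and 6 fixed by role. Listed genes were the 2 called with the largest change with CuO NPs against control. Members outside this rule are named after their values were seen. In the scaling without mitochondrially encoded genes, TPM was rescaled to the remaining genes. Other tools were Python 3.11.15, pandas 2.3.3, numpy 2.4.6 and matplotlib 3.10.9.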

Additional observations from a re-analysis of the deposited data

How the results depend on the processing

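Counts of members called in each direction moved with scaling. For CuO NPs against control, median-of-ratios scaling gave 23 members higher and 4 lower (large subunit 14 and 1, small subunit 3 lower), median centring 29 and 4 (large 18 and 1, small 11 and 3), and quantile normalization 22 and 6 (large 13 and 2). For CuO NPs + TTM against CuO NPs, median-of-ratios scaling gave 10 members higher (large 5), median centring 7 (large 3 higher and 21 lower, small 4 higher), quantile normalization 7 large-subunit genes higher and no filter 6. For CuO NPs + TTM against control, assigning Mrps30 and Mrps18a to the large subunit and leaving out Mrps36 gave 3 small-subunit genes higher. Signs turned for Mrpl20 with CuO NPs against control (0.0093, 0.057 and 0.024 under the 3 scalings) and for Mrpl28 with CuO NPs + TTM against CuO NPs (-0.037 under median centring). These scalings move the median of all genes by construction, and no other cause was tested.

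With each of the 9 libraries left out in turn, members called higher and lower numbered 10 to 13 and 12 to 18 for CuO NPs against control (large 5 to 7 and 7 to 12, small 5 to 6 and 4 to 7). For CuO NPs + TTM against CuO NPs they numbered 13 to 19 and 21 to 24 (large 7 to 11 and 10 to 13, small 6 to 8 and 10 to 11), and for CuO NPs + TTM against control 13 to 18 and 21 to 27 (large 9 to 12 and 14 to 18, small 3 to 7 and 5 to 9). The group that lost a library was left with 2.

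The labels number the replicates alike in each group, but same-numbered libraries did not deviate together, with correlations of -0.127 to 0.00969, and in 0 of 18 pairings of a library with another group was its own number the best match. With a replicate block the members called higher and lower numbered 10 and 15, 16 and 24, and 17 and 24 in the 3 comparisons, within 1.5 times the values without it.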
